A study of Mus musculus with 8 samples.

Results

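Normal embryonic mouse brain was set against mouse embryonic stem cells (mESC), using 5 of the 8 libraries of the series. The labels chose the libraries, and the genes were the 8114 that appear by identifier in both expression tables, of 14496 genes in the brain table and 9217 in the mESC table. All 8114 are annotated as protein-coding. The 3 brain control libraries came from embryos taken between embryonic day 9.5 and 10.5 whose neural tubes had closed. They are labelled brain and normal saline, and the diet of their dams is not stated. The mESC are the Sv/129 line, grown with serum and leukemia inhibitory factor (LIF) on gelatin. One mESC library was kept in folate-free medium (FA0) and 1 in the same medium with 4 mg/L folic acid (FA4), so the mESC side holds 1 library per condition. Pooling of embryos, separate litters and the number of cell passages are not given in the labels, so the p-values below cover the spread of these 5 libraries, which may be technical.

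A pluripotent cell keeps open the choice of every embryonic lineage. In mouse ESC, LIF acting through STAT3 supports a network of transcription factors around Pou5f1, Sox2, Nanog, Esrrb and Tfcp2l1. During gastrulation that network is shut down in the ectoderm, and neuroepithelial cells take on a program led by SoxB1 factors, Notch signalling and regional homeobox genes, and then give rise to neurons. The study behind these data concerns DNA N6-methyladenine, its demethylase ALKBH1 and H3K9me3 heterochromatin in neural tube development, and both cell states appear in it.

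Levels are CPM, the count of a gene scaled to a common library total, here over the 8114 shared genes. These genes held 16003057, 18580308 and 13314894 counts in brain controls 1 to 3, and 4891042 and 3641525 estimated counts in FA0 and FA4. Tissue, table and counting method differ together and cannot be told apart in any value below. In tissue, fewer cells of a type and less RNA per cell cannot be told apart either. The mESC table lists its genes by peaks of a second assay, so genes without such a peak are not compared. Values of 5 libraries are always given as brain controls 1, 2 and 3, then FA0 and FA4. A log2 fold change is brain minus mESC, with its standard error (SE), from edgeR's quasi-likelihood test, and adjusted p-values are Benjamini-Hochberg values over the 8043 genes tested. A gene was called higher on one side at an adjusted p under 0.05 and at least 4-fold. A split of 3 against 2 libraries gives 10 arrangements, so no exact permutation test of a single gene could reach 0.05.

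Promoter sequence is printed for 4 genes on which the results below turn, so that the letters can be read beside the levels. Dnmt3l and Tfcp2l1 had 0 and 1 counts over all brain controls and were among the largest differences toward mESC, and Sox1 and Hes6 were high in brain and low in mESC. Each window runs from 250 bases before to 50 after the RefSeq start on build GRCm38.p6, written 5′ to 3′ along the gene. Capitals mark ATGCAAAT (the octamer read by Pou5f1), TTCAGCACC (part of the element read by Rest) and CAGCTG (an E-box of proneural factors), searched on both strands. The windows are chr10:78042037-78042336, plus strand for Dnmt3l, chr1:118627695-118627994, plus strand for Tfcp2l1, chr8:12395269-12395568, plus strand for Sox1 and chr1:91413989-91414288, minus strand for Hes6. The Dnmt3l window lies inside the GENCODE span of the gene, which starts at chr10:78041947. RefSeq and GENCODE thus place its start differently, and its window may not be the promoter in use.
Dnmt3l: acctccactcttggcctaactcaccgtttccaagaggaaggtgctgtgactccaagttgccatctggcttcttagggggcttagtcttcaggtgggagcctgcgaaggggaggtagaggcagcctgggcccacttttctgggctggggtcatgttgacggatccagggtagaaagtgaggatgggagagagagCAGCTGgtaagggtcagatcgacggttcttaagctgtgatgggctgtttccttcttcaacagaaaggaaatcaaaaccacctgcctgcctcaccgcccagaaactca
Tfcp2l1: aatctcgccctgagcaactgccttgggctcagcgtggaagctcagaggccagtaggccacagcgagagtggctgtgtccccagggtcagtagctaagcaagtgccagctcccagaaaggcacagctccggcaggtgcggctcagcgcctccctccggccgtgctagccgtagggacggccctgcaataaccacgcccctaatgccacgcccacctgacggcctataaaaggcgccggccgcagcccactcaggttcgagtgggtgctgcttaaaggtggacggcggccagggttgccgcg
Sox1: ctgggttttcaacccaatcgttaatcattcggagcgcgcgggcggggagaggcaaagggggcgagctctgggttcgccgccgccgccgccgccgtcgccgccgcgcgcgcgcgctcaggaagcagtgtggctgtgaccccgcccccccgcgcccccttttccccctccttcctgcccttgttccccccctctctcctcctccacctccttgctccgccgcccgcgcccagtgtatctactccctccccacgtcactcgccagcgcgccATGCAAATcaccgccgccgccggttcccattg
Hes6: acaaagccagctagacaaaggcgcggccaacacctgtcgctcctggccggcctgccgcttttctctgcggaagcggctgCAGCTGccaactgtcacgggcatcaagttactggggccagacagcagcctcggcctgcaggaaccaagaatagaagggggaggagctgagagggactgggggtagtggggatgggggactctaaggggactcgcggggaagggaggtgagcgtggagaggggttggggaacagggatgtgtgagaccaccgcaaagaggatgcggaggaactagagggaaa
The octamer appeared once, in the promoter of Sox1, and the E-box appeared once in Dnmt3l and once in Hes6. RefSeq promoters were matched for 6094 of the tested genes, and the octamer was in 1.28% of them, the E-box in 14.3% and the Rest letters in 0.394%. Among genes called higher in brain the shares were 1.35%, 12.4% and 0.149% of 669 promoters. Among genes called higher in mESC they were 1.83%, 13.8% and 0.215% of 930. The Rest letters were in 1 promoter of the brain group and 2 of the mESC group, and a match is not a binding site.

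Of 8043 genes tested, 886 were called higher in brain (11.0%) and 1254 higher in mESC (15.6%), so 26.6% were called. Every count over a gene list below is to be read beside these shares. Without the fold threshold 41.8% passed. Brain libraries correlated with mESC libraries at a Pearson r of 0.382 to 0.427 across the log2 CPM of 8114 genes, against 0.841 to 0.934 between brain controls and 0.976 between FA0 and FA4. These correlations run across genes, which do not count as replicates. All 3 brain values lay above both mESC values for 31.1% of tested genes, and below both for 43.8%. All 2140 called genes were separated in this way, so separation adds nothing to a call. The share of calls that were higher in brain was 41.4%, but 53.0% with quantile normalization, 21.0% with limma-voom and 52.9% over genes with at least 10 counts in each library, so the balance between directions is not a stable measure. The median log2 fold change over all tested genes was -0.26, and TMM scaling raised it by 0.25 and quantile normalization by 0.40.

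**Figure D1:**
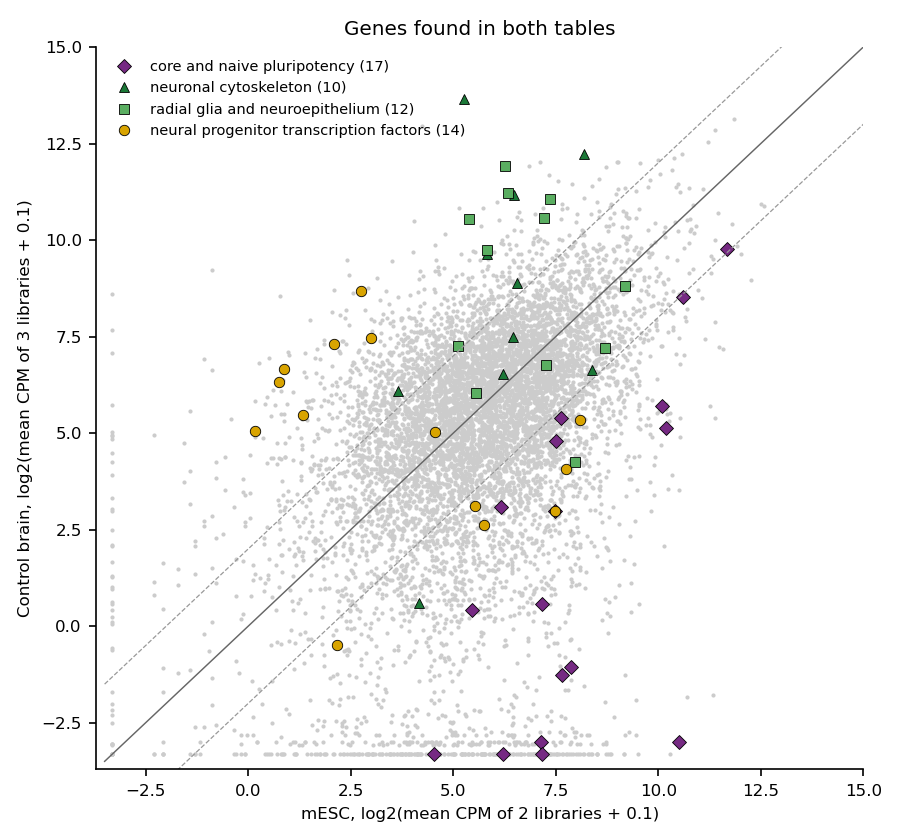
Mean level in 3 control brain libraries (vertical axis) against the mean in 2 mESC libraries (horizontal axis), both as log2(CPM + 0.1), for 8114 shared genes in grey and 4 gene lists in colour, with the number of shared members in the legend. The solid line marks equal levels and the dashed lines 4-fold differences. Pluripotency genes lie below the line, several at the floor of the brain axis, and most radial glia and neuronal cytoskeleton genes lie above it.

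Features of the tables move with these differences. With genes cut into 5 equal bins by exon length, the median level stayed at 39.4 to 51.4 CPM in the brain controls but rose from 29.9 CPM in the bin of the shortest genes to 90.9 CPM in that of the longest in FA4. Among the shortest genes 21.3% were called higher in brain and 10.8% higher in mESC, and among the longest 6.12% and 22.7%. Of the 4057 genes at 50 CPM or more in both mESC libraries, 82 had 0 counts in all 3 brain controls. These include Dnmt3l, Utf1, Nodal, Kdm4c, Kdm6a, L3mbtl2 and Bmpr2, named below, beside Brd2, Ppp1ca and Pum2. Of the 4057 genes, 370 had 0 counts in control 1, 179 in control 2 and 119 in control 3. Control 1 stood apart with 0 counts at 14.2% of shared genes, against 6.62% and 4.95% in controls 2 and 3. Without it 980 genes were called higher in brain and 1852 higher in mESC. Without FA0 the counts were 581 and 580, and without FA4 they were 610 and 589. In the other direction, 3 of the 3016 genes at 50 CPM or more in all brain controls had 0 counts in both mESC libraries.

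**Figure D2:**
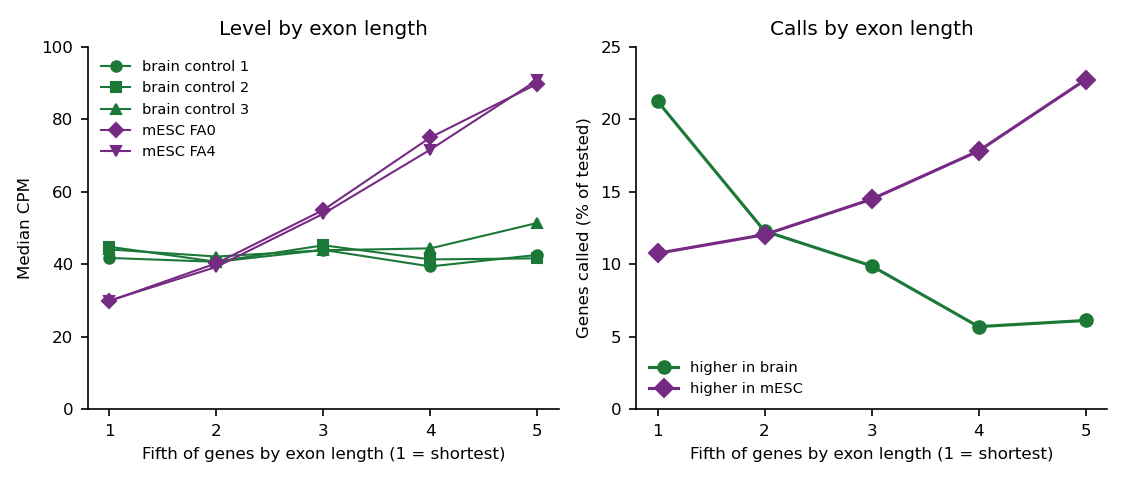
Left, median CPM of shared genes in each of 5 equal bins by exon length, 1 line per library. Right, share of tested genes called higher in brain or in mESC in each bin. The brain lines are flat and the mESC lines rise with length, and calls move with them.

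The largest differences in either direction mixed cell identity with genes that nearly every cell uses. Among the 15 largest toward mESC were the pluripotency genes Dnmt3l and Tfcp2l1, and beside them Brd2, a BET chromatin reader at 692 and 761 CPM in mESC, Sec16a of endoplasmic reticulum exit sites at 647 and 495 CPM and the catalytic phosphatase subunit Ppp1ca at 449 and 429 CPM, each with 0 counts in all 3 brain controls. The translation repressor Pum2, the dynein regulator Pafah1b1, the ubiquitin-conjugating enzyme Ube2d3, the mitochondrial RNA-binding protein Lrpprc and the nucleolar protein Rsl1d1 also had 0 brain counts, as did Diap1, Mbtd1, L3mbtl2 and the histone genes Hist1h1a and Hist1h1b. Toward brain, the kinase Akt1 was at 185, 223 and 199.8 CPM, Samd1 at 359, 326 and 484 CPM and the phosphatase regulator Ppp1r10 at 109, 116 and 182 CPM with 0 counts in mESC. Mxd1, Etaa1, Hypk, Slc30a7, Frmd6 and Chrna3 also had 0 counts in mESC, at lower brain levels. The small proteins Tmsb4x, which binds actin, and Atp5e and Atp5k of ATP synthase were at 8484, 7127 and 7995 CPM, 1097, 353 and 329 CPM and 486, 342 and 303 CPM in brain against 18.2 and 19.5 CPM, 0.613 and 0.275 CPM and 1.02 and 2.2 CPM in mESC. The tendon and mesenchyme factor Scx, Hoxd3 and Basp1 completed the 15. The call of Atp5e was lost with limma-voom (adjusted p = 0.096). That of Frmd6 was lost when control 2, control 3, FA0 or FA4 was left out, with adjusted p-values of 0.059, 0.051, 0.072 and 0.067.

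Genes of shared machinery, picked after the values were seen, show how far such differences reach. Of 251 tested members of 13 such families, 55 were called higher in brain and 36 higher in mESC, or 33 and 41 with the length trend removed. The 55 and 36 were 21.9% and 14.3%, beside 11.0% and 15.6% of all genes tested. Without the ribosomal, NADH dehydrogenase and ATP synthase genes, the counts were 19 and 29 of 172. These were 11.0% and 16.9%, close to the shares over all genes tested. NADH dehydrogenase genes, with a median exon length of 1685 bases, had 13 of 24 members called higher in brain and 1 higher in mESC, and ATP synthase genes had 6 of 10 and 0. Aminoacyl-tRNA synthetases had 0 of 17 called higher in brain and 9 higher in mESC, and nucleoporins 0 of 14 and 4. Proteasome subunits had 4 and 1 of 27, and COP9 signalosome and exosome subunits had none called among 7 each. Identity genes have to be read against these counts.

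Pluripotency genes were higher in mESC, several with next to no counts in brain. Of 31 genes named for the core and naive network, 17 were in both tables. All 17 were tested, and 14 were called higher in mESC and 0 higher in brain, with a median log2 fold change of -5.11 against -0.26 over all genes tested. Without control 1 the counts were again 14 and 0. Pou5f1, Nanog and Zfp42 (Rex1) are listed in the mESC table and not compared here. Per length, Pou5f1 stood at 405 and 456 FPKM (fragments scaled to exon length and library size) in FA0 and FA4, Nanog at 208 and 156 FPKM and Zfp42 at 434 and 305 FPKM, against a median of 12.1 and 12.0 FPKM over the genes listed. Tdgf1, the Nodal co-receptor, was at 67.3 and 88.5 FPKM, and Tcl1 and Nr0b1, other members of the naive network, were at 87.8 and 63.3 FPKM for Tcl1 and 39.1 and 40.2 FPKM for Nr0b1. Each of these 6 genes, picked from 11 members in the mESC table alone, stood above the median gene in both mESC libraries. Not every network gene did: Prdm14, found in both tables, was at 7.14 and 4.91 FPKM in FA0 and FA4.

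Tfcp2l1 (chr1:118627945-118685168), a LIF-STAT3 target that maintains naive pluripotency, read 0, 0 and 0.0751 CPM in the brain controls and 1718 and 1168 CPM in mESC. The brain value rests on 1 count in all, and the adjusted p was 0.00077. Utf1, a chromatin-bound marker of pluripotency, had 0 counts in the brain controls and 145 and 142 CPM in mESC, at least 749-fold higher against a floor of 3 counts per library (adjusted p = 0.0018). Nodal, the TGF-β ligand of the epiblast, also had 0 brain counts and stood at 66.2 and 82.4 CPM in mESC, at least 388-fold higher (adjusted p = 0.0034). Dppa4, a marker bound to active chromatin, had 1 count over the 3 brain controls and 131 and 150.2 CPM in mESC. In each of these genes every mESC value was above every brain value, as in all genes called higher in mESC.

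Klf5, one of the Krüppel-like factors of ground-state cells, read 0, 0.538 and 0.601 CPM in brain and 208 and 259.8 CPM in mESC, a log2 fold change of -9.23 ± 1.13 (adjusted p = 0.0033). L1td1, an RNA-binding protein of pluripotent cells, read 0.875, 0 and 0.0751 CPM in brain and 171 and 229 CPM in mESC (-9.25 ± 1.46, adjusted p = 0.0068). Esrrb, a nuclear receptor of the core network, read 0, 2.8 and 1.35 CPM in brain and 156 and 128 CPM in mESC (-6.67 ± 1.54, adjusted p = 0.021), and its call was lost without control 2, control 3, FA0 or FA4, at adjusted p-values of 0.055, 0.078, 0.092 and 0.082. Brain levels of all these genes lie near the floor.

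Other members stayed measurable in brain. Sall4, a zinc finger factor that holds Pou5f1 expression, read 44.5, 71.9 and 39.5 CPM in brain and 1058 and 1137 CPM in mESC (-4.40 ± 0.32, adjusted p = 0.001). Mybl2, a factor of the cell cycle in ESC, read 13.9, 52.5 and 38.2 CPM in brain and 1277 and 1057 CPM in mESC (-5.06 ± 0.59, adjusted p = 0.0029). The gap was narrower for Tbx3, which supports self-renewal, at -2.71 ± 0.44 (adjusted p = 0.0075). Jarid2, a Polycomb partner, read 399.5, 354 and 352 CPM in brain and 1686 and 1412 CPM in mESC (-2.07 ± 0.16, adjusted p = 0.0011), and it fell under 4-fold with TMM (-1.82), with the length trend removed (-1.52) and without FA0 (-1.94). Trim28, the corepressor of KRAB zinc fingers, read 864, 896 and 856 CPM in brain and 3275 and 3279 CPM in mESC and was not called at -1.91 ± 0.12 (adjusted p = 0.00089), just under the fold threshold, which it passed with quantile normalization (-2.36). Klf4 ranged over 0.187, 3.12 and 21.9 CPM in brain against 75.2 and 68.7 CPM in mESC and was not called (adjusted p = 0.18), though its groups did not overlap. Brain levels thus ran from near 0 for Tfcp2l1 to the high values of Trim28.

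Sox2 belongs to both identities, since it pairs with Pou5f1 in ESC and marks neuroepithelium. In these tables it read 6.69, 6.73 and 9.99 CPM in brain and 191 and 168 CPM in mESC (-4.52 ± 0.35, adjusted p = 0.0011). Its single exon, at chr3:34650405-34652461, lies inside the transcript span of Sox2ot on the same strand, and neither the strand setting nor the treatment of overlapping genes is given for the brain counts. Sox1 and Sox3, its SoxB1 relatives, went the other way, as described below.

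**Figure D3:**
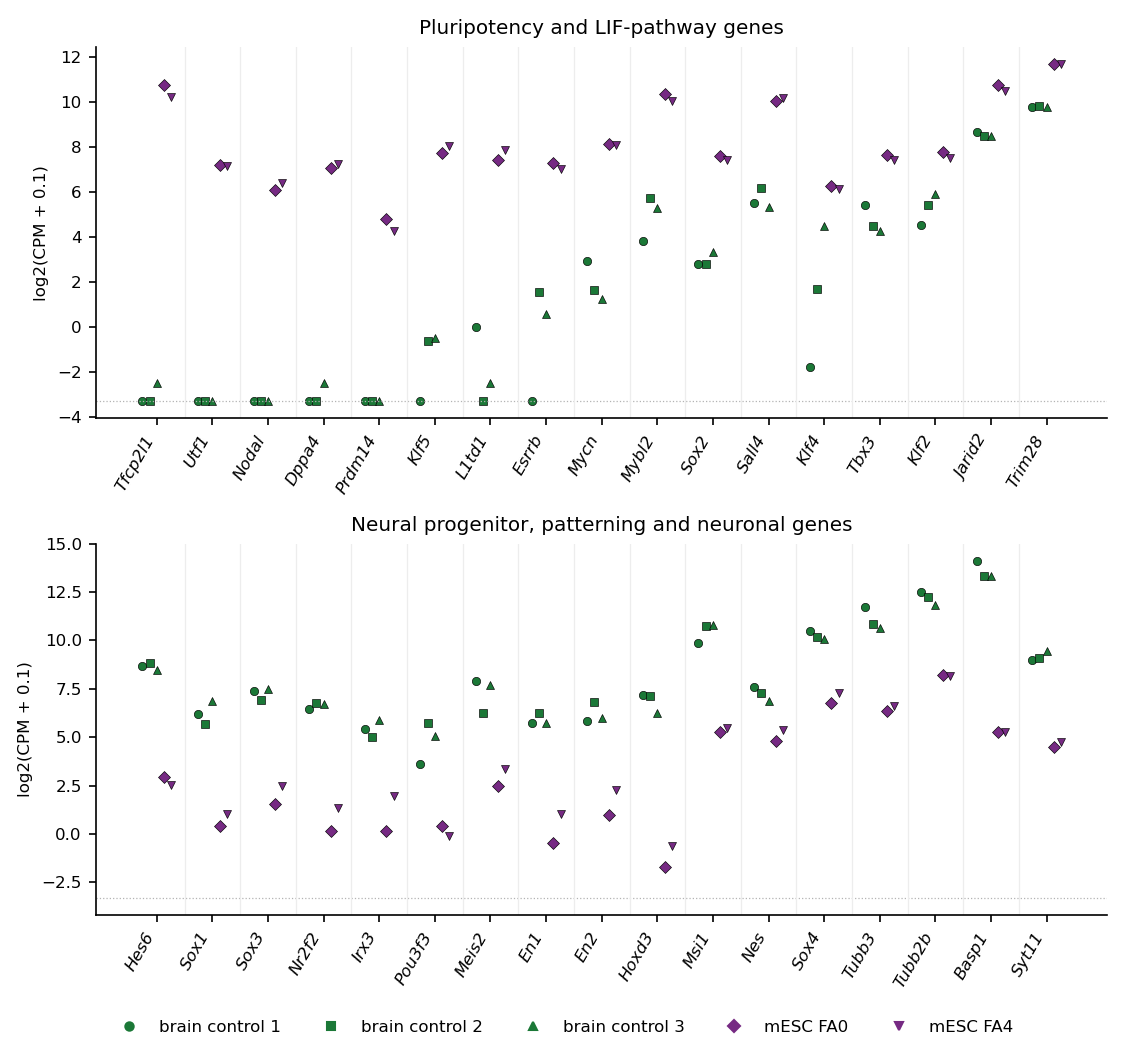
Level of 17 pluripotency and LIF-pathway genes (top) and 17 neural genes (bottom) in each library, as log2(CPM + 0.1), with genes picked for display after their values were seen. Green symbols are the 3 brain controls and purple symbols the 2 mESC libraries, and the dotted line marks 0 counts. In the upper panel every mESC value is above every brain value, and in the lower panel every brain value is above every mESC value.

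Genes of the primed epiblast, the state between ESC and germ layers, had members on both sides: 3 of 10 tested were called higher in mESC and 1 higher in brain. These were 30% and 10%, beside 15.6% and 11.0% of all genes tested. The de novo DNA methyltransferase Dnmt3b was higher in mESC, as given below. Foxd3, a factor of epiblast and neural crest, had 2 counts in the brain controls and 7.16 and 11 CPM in mESC, a ratio of 211 over pooled counts (95% interval 56.3 to 1770.2, counting error only, adjusted p = 0.014). Its call was lost without control 2 (adjusted p = 0.053), FA0 (0.12) or FA4 (0.15) and with quantile normalization (0.12). Otx2, needed for both epiblast and forebrain, read 187, 73.6 and 86.6 CPM in brain and 85.9 and 122 CPM in mESC (0.15 ± 0.49, adjusted p = 0.82), so its groups overlapped.

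Of LIF pathway genes 2 of 10 were called, both higher in mESC (20%, beside 15.6% of all genes tested). Besides Tfcp2l1 this was Mycn, which drives growth of ESC, at 7.5, 3.01 and 2.25 CPM in brain and 279 and 265 CPM in mESC (-5.99 ± 0.62, adjusted p = 0.002). The signal transducer Stat3 itself read 36.5, 47.7 and 85.1 CPM in brain and 93.8 and 134 CPM in mESC and was not called (adjusted p = 0.13). The LIF receptor Lifr is in the mESC table alone, at 64.6 and 56.8 FPKM.

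The let-7 axis, in which Lin28 proteins and Trim71 keep early cells immature, was split. Of 7 tested members, 1 was called higher in brain and 2 higher in mESC. These were 14.3% and 28.6%, beside 11.0% and 15.6% of all genes tested. Trim71, an RNA-binding ubiquitin ligase of ESC, read 15.3, 48 and 25.9 CPM in brain and 1554 and 1406 CPM in mESC (-5.64 ± 0.53, adjusted p = 0.0017). The mRNA-binding protein Igf2bp1 was also higher in mESC, at -2.48 ± 0.14 (adjusted p = 0.00086), or -1.93 with the length trend removed, which is under 4-fold. Its relative Igf2bp3 was higher in brain, at 365, 518 and 604 CPM against 75.2 and 92.8 CPM (2.56 ± 0.30, adjusted p = 0.0028). Lin28a spread over 0.125, 15.1 and 48.1 CPM in brain, with 598 and 619 CPM in mESC, and was not called (adjusted p = 0.07). Without control 1 it was called, at -4.27 and an adjusted p of 0.019. Lin28b lay the other way, at 85.5, 47.6 and 34.4 CPM in brain and 2.25 and 14 CPM in mESC. It was not called either (2.79 ± 0.96, adjusted p = 0.068). Lin28b was called in some alternatives, such as quantile normalization (5.21) and with the length trend removed (3.28).

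Regulators of DNA methylation differed by member. Of 16 tested, 4 were called higher in mESC and 2 higher in brain (25% and 12.5%, beside 15.6% and 11.0% of all genes tested). Dnmt3l (chr10:78041947-78063622), the catalytically inactive cofactor of the de novo methyltransferases in germ cells and ESC, had 0 counts in the brain controls and 1214 and 1265 CPM in mESC, at least 6476-fold higher (adjusted p = 0.00086). Dnmt3b, a de novo enzyme, read 94.9, 91.4 and 75.6 CPM in brain and 384 and 495 CPM in mESC (-2.33 ± 0.22, adjusted p = 0.0015), while its relative Dnmt3a read 207, 266 and 363 CPM in brain and 257 and 213 CPM in mESC, with overlapping groups (0.25 ± 0.29, adjusted p = 0.53). The maintenance enzyme Dnmt1 spread over 25.9, 166 and 270.2 CPM in brain and was not called (adjusted p = 0.17), and its partner Uhrf1 was at 1169.5, 968 and 1078 CPM in brain and 595 and 592 CPM in mESC (0.85 ± 0.16), below the fold threshold.

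TET dioxygenases, which oxidise 5-methylcytosine, had low brain levels. Tet3 read 4.81, 3.28 and 2.78 CPM in brain and 105 and 98.9 CPM in mESC (-4.81 ± 0.44, adjusted p = 0.0015). Tet2 read 4.69, 2.15 and 21.7 CPM in brain and 126 and 128 CPM in mESC (-3.74 ± 1.02, adjusted p = 0.035), a call that was lost without control 1 (adjusted p = 0.15), without control 2 (adjusted p = 0.065), without FA0 (adjusted p = 0.1), without FA4 (adjusted p = 0.11) and with the length trend removed (adjusted p = 0.074). Tet1 had counts only in control 1, at 8.31, 0 and 0 CPM over the 3 controls, and 281 and 265 CPM in mESC, and was not called (adjusted p = 0.063); without control 1 its adjusted p was 1.1e-07. The methyl-CpG binding protein Mbd2 was higher in brain, at 2.53 ± 0.34 (adjusted p = 0.0042), a call that was lost with limma-voom (adjusted p = 0.08).

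Alkbh1, the demethylase that names the study, read 94.7, 56.4 and 50.9 CPM in brain and 123 and 155 CPM in mESC, and its difference of -1.05 ± 0.37 was not called (adjusted p = 0.071). Of 12 tested genes of the AlkB family and of N6-adenine methylation, 0 were called higher in brain and 3 higher in mESC. The 3 were 25%, beside 15.6% of all genes tested. Mettl4, a methyltransferase acting on N6-adenine, read 11.2, 2.37 and 1.13 CPM in brain and 88.5 and 56.8 CPM in mESC (-3.89 ± 1.07, adjusted p = 0.036), a call that was lost without control 2 (adjusted p = 0.11), without control 3 (adjusted p = 0.065), without FA0 (adjusted p = 0.17) and without FA4 (adjusted p = 0.094). Ythdc1, the nuclear reader of N6-methyladenosine in RNA, read 7.5, 3.77 and 3 CPM in brain and 99.6 and 127 CPM in mESC (-4.57 ± 0.55, adjusted p = 0.003). The transfer RNA enzyme Alkbh8 was called at -2.38 ± 0.49 (adjusted p = 0.015), and lost its call without FA0 (0.13) or FA4 (0.17), and fell under 4-fold with the length trend removed (-1.92) or quantile normalization (-1.97).

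Among H3K9 methylation and heterochromatin genes, 6 of 13 were called higher in mESC and 1 higher in brain, or 4 and 1 either without control 1 or with the length trend removed. Kdm4c, an H3K9 demethylase of ESC, had 0 brain counts and 181 and 221 CPM, at least 1049-fold higher in mESC (adjusted p = 0.0015), while its relative Kdm4a read 311, 199 and 243 CPM in brain and 61.3 and 38.4 CPM in mESC (2.33 ± 0.34, adjusted p = 0.0056). The heterochromatin protein Cbx1 (HP1β) read 19.5, 7.48 and 5.18 CPM in brain and 163 and 178 CPM in mESC (-3.99 ± 0.65, adjusted p = 0.0074), and Morc3, a nuclear ATPase, 0.25, 4.79 and 2.7 CPM in brain and 257 and 221 CPM in mESC (-6.52 ± 1.13, adjusted p = 0.0089). The H3K9 methyltransferase Setdb1 read 36, 33.7 and 83.5 CPM in brain and 235 and 179 CPM in mESC (-2.02 ± 0.48, adjusted p = 0.024). That call was lost without control 1 (log2 -1.82), without control 2 (adjusted p = 0.074), without FA0 (adjusted p = 0.12), without FA4 (adjusted p = 0.067), with TMM (log2 -1.75), with quantile normalization (log2 -1.94), with the length trend removed (log2 -1.72) and with totals that leave out ribosomal, mitochondrial, globin and histone genes (log2 -1.97).

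Polycomb genes silence lineage genes in ESC, and the list of 18 tested also held the H3K27 demethylase Kdm6a. Of the 18, 8 were called higher in mESC and 2 higher in brain. These were 44.4% and 11.1%, beside 15.6% and 11.0% of all genes tested. Suz12, a core subunit of Polycomb repressive complex 2 (PRC2), read 126, 44.6 and 41.7 CPM in brain and 704 and 619 CPM in mESC (-3.23 ± 0.55, adjusted p = 0.0087), and its accessory subunit Mtf2 read 5.87, 2.69 and 0.976 CPM in brain and 636 and 512 CPM in mESC (-7.48 ± 0.80, adjusted p = 0.0022). The catalytic subunit Ezh2 read 121, 57 and 37 CPM in brain and 137 and 141 CPM in mESC and was not called (adjusted p = 0.2). In PRC1, the ubiquitin ligase Rnf2 was higher in mESC (0.25, 2.26 and 1.65 CPM in brain and 159 and 168 CPM in mESC, -6.87 ± 0.94, adjusted p = 0.0045). Bmi1 and Pcgf2, alternative PRC1 subunits, were higher in brain at 2.18 ± 0.35 and 2.16 ± 0.27 (adjusted p = 0.007 and 0.0035). Cbx2, a chromodomain subunit of PRC1, stood at 1.87 ± 0.21, short of 4-fold (adjusted p = 0.0024). The call of Bmi1 was lost without FA0 (adjusted p = 0.067), without FA4 (adjusted p = 0.059), with limma-voom (adjusted p = 0.095) and with the length trend removed (log2 1.91), and that of Pcgf2 with the length trend removed (log2 1.79). Kdm6a and the PRC1-associated L3mbtl2 had 0 brain counts, and bounds of at least 967-fold and 1908-fold. Both belong to the 82 genes above that also hold Brd2, Ppp1ca and Pum2. Whether tissue or table sets these zeros was not tested.

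Rest, the repressor that keeps neuronal genes silent outside neurons, read 14.5, 3.77 and 5.03 CPM in brain and 837 and 969.6 CPM in mESC (-6.86 ± 0.70, adjusted p = 0.002). It was the only one of 8 tested genes of REST and its corepressors to be called, against 2 without control 1. This was 12.5% toward mESC, no more than the 15.6% of all genes tested. Its corepressor Hdac1 read 612, 576 and 590.1 CPM in brain and 442 and 459.7 CPM in mESC, and the CoREST protein Rcor2 was at 252, 302 and 294 CPM in brain and 134 and 123 CPM in mESC (1.14 ± 0.19), below the fold threshold.

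The BAF remodelling complex exchanges members as stem cells become neurons. Of 5 tested members of a neuronal list, 2 were called higher in brain and none higher in mESC. The 2 were 40%, beside 11.0% of all genes tested. Smarcc2 (BAF170) read 407, 301 and 259 CPM in brain and 32.9 and 39.8 CPM in mESC (3.15 ± 0.30, adjusted p = 0.0017), while its partner Smarcc1 (BAF155), typical of ESC, read 194, 138 and 214 CPM in brain and 563 and 550.0 CPM in mESC and stayed under 4-fold at -1.61 ± 0.23 (adjusted p = 0.0053). Bcl7a was higher in brain at 3.62 ± 0.50 (adjusted p = 0.0047, and 0.13 with limma-voom). Of 11 tested members of a list made for stem cells and progenitors, Smarce1 and Brd9 were called higher in brain and Phf10 higher in mESC. These were 18.2% and 9.09%, beside 11.0% and 15.6% of all genes tested. Brd9 lost its call with limma-voom (adjusted p = 0.068).

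**Figure D4:**
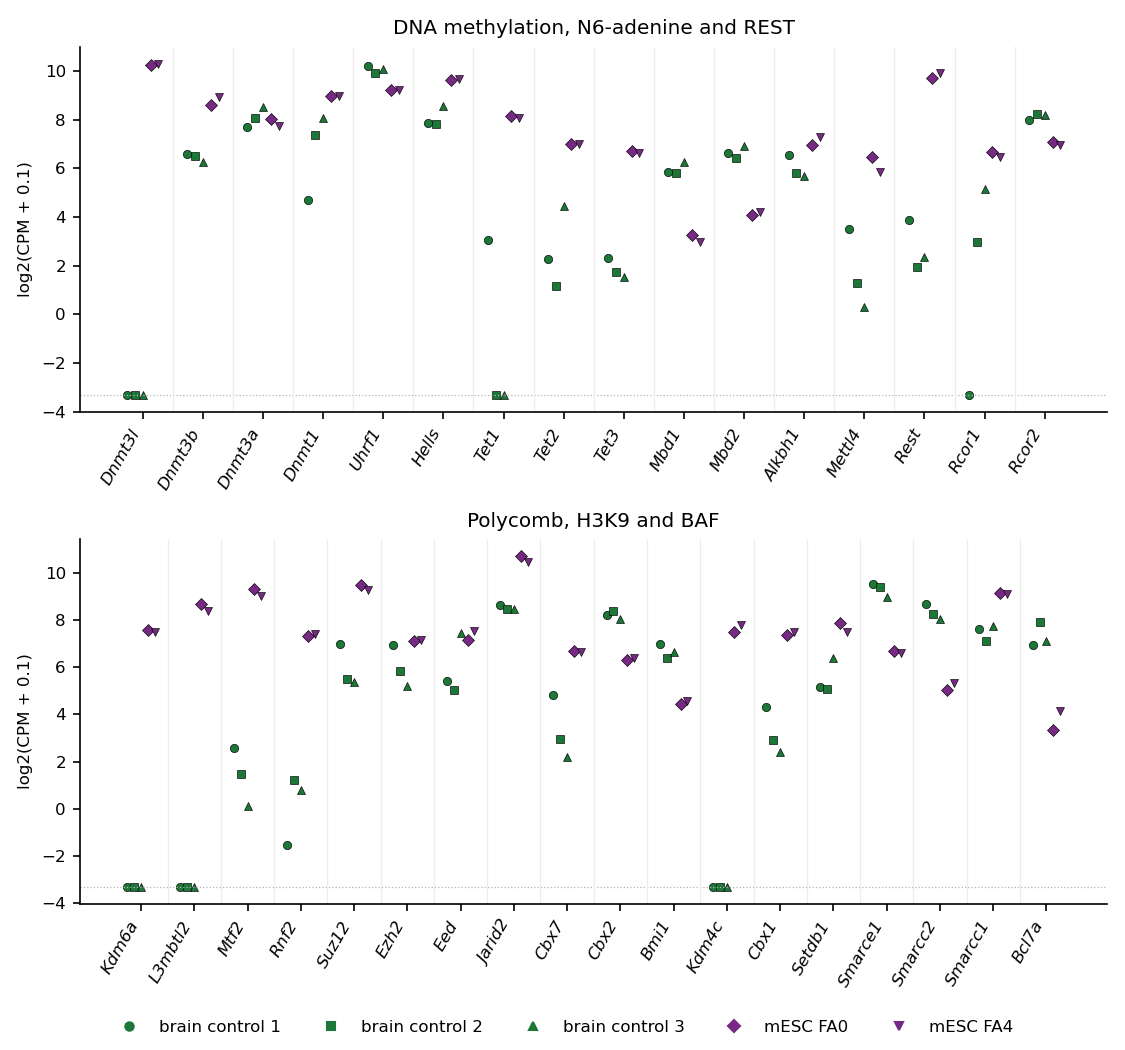
Level of regulators of DNA methylation, N6-adenine and REST (top) and of Polycomb, H3K9 and BAF genes (bottom) in each library, as log2(CPM + 0.1). Green symbols are the 3 brain controls, purple symbols the 2 mESC libraries, and the dotted line marks 0 counts. Members of one family lie on both sides, such as Mtf2 and Bmi1, and Tet1 has counts in 1 of the 3 brain controls.

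On the neural side, 7 of 14 tested neural progenitor transcription factors were called higher in brain and 3 higher in mESC, with a median log2 fold change of 2.35. These were 50% and 21.4%, beside 11.0% and 15.6% of all genes tested. With the length trend removed the counts were again 7 and 3, and the median was 1.56. Without control 1 the counts were 7 and 5. Hes6, a bHLH factor that promotes neurogenesis, read 410.2, 461 and 356 CPM in brain and 7.56 and 5.77 CPM in mESC (5.93 ± 0.29, adjusted p = 0.00077). Sox3 and Sox1, SoxB1 factors of neuroepithelium, were near the floor in mESC: Sox3 read 170.3, 119.9 and 183 CPM in brain and 2.86 and 5.49 CPM in mESC (5.25 ± 0.49, adjusted p = 0.0016), and Sox1 read 73.9, 51.2 and 116 CPM in brain and 1.23 and 1.92 CPM in mESC (5.68 ± 0.65, adjusted p = 0.0027, or 0.059 with limma-voom). The nuclear receptor Nr2f2 (COUP-TFII) read 87.4, 108 and 106 CPM in brain and 1.02 and 2.47 CPM in mESC (5.86 ± 0.57, adjusted p = 0.0017). All 3 brain values of these genes lay above both mESC values, as in all genes called higher in brain.

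The regional factor Meis2 was called higher in brain as well, at 4.49 ± 0.71 (adjusted p = 0.0068, or 0.28 with limma-voom). Among the 3 toward mESC were Sox2 and Nr6a1, a nuclear receptor of early embryos. Nr6a1 read 22.5, 12.8 and 14.8 CPM in brain and 203 and 227 CPM in mESC (-3.68 ± 0.35, adjusted p = 0.0017). Another 14 factors of this list are in the brain table alone, where CPM is over the whole table. The Notch effector Hes5 read 298, 221 and 222 CPM, the dorsal factor Pax3 163, 131 and 130.4 CPM and Pax6, a factor of forebrain and spinal progenitors, 0.895, 1.79 and 5.17 CPM.

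Radial glia and neuroepithelial genes had 7 of 12 members called higher in brain and 0 higher in mESC, with a median of 2.75, or 6 and 0 without control 1. Msi1, an RNA-binding protein of neural stem cells, read 932, 1727 and 1799 CPM in brain and 37.8 and 45 CPM in mESC (5.17 ± 0.41, adjusted p = 0.0012). The membrane protein Marcks read 4409, 2783 and 4514 CPM in brain and 77.3 and 75 CPM in mESC (5.68 ± 0.32, adjusted p = 0.00086). Hmgcs1 of cholesterol synthesis, the acyl-CoA binding protein Dbi and Marcksl1 were called at 3.36 ± 0.18, 3.90 ± 0.26 and 3.72 ± 0.36 (adjusted p = 0.00081, 0.00091 and 0.0017). Nes, the intermediate filament of neural stem cells, read 192, 153 and 116 CPM in brain and 27.8 and 41.7 CPM in mESC (2.15 ± 0.37, adjusted p = 0.0088). Its call was lost without control 1 (1.96, under 4-fold), without FA0 (adjusted p = 0.066) and with limma-voom (0.051). Cdh2 (N-cadherin) and Fabp7, in the brain table alone, read 267, 214 and 294 CPM for Cdh2 and 213, 259 and 257 CPM for Fabp7 of the whole table.

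Patterning genes of the midbrain, hindbrain and forebrain were present in the brain controls, and 3 of 6 tested were called higher in brain. En1 and En2, homeobox genes of the midbrain-hindbrain boundary, read 52.9, 76.7 and 53.9 CPM for En1 and 56.9, 114 and 63.6 CPM for En2 in brain and 0.613 and 1.92 CPM for En1 and 1.84 and 4.67 CPM for En2 in mESC (5.61 ± 0.74 and 4.60 ± 0.71, adjusted p = 0.0039 and 0.0063). En2 was at an adjusted p of 0.083 with limma-voom. Dlx2, a factor of ventral forebrain and branchial arches, read 16.1, 46.1 and 26.8 CPM in brain and 0.409 and 1.65 CPM in mESC (4.86 ± 1.08, adjusted p = 0.019), and lost its call without control 2 (0.065), FA0 (0.12) or FA4 (0.069), and with limma-voom (0.074).

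Of 36 Hox genes named, 2 were in both tables. Hoxd3 read 145, 140.3 and 76.9 CPM in brain and 0.204 and 0.549 CPM in mESC, a ratio of 353 over pooled counts with a 95% interval of 121 to 1713 for counting error only (adjusted p = 0.0013). Of its exonic bases 62.3% overlap other genes of the same strand, so its counts may include theirs. In the brain table alone, Hoxa2 read 39.8, 38.4 and 34.7 CPM, Hoxb4 54.1, 41 and 42.9 CPM and Hoxc4 70.3, 124 and 83.8 CPM of the whole table, while the posterior Hoxc8 and Hoxb9 read 0, 0.0381 and 0.211 CPM for Hoxc8 and 0, 0.305 and 0.211 CPM for Hoxb9. Anterior Hox genes are normally active in hindbrain and cervical tube.

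Of 10 tested genes of the neuronal cytoskeleton, 6 were called higher in brain and 0 higher in mESC, with a median of 2.38, or 6 and 1 without control 1. Tubb3, the β-tubulin used as a mark of neurons, read 3409.8, 1856 and 1584 CPM in brain and 81 and 97.8 CPM in mESC (4.68 ± 0.46, adjusted p = 0.0018). Basp1, a growth cone protein, had the highest brain level of the list at 17911, 10180.0 and 10316 CPM, against 38 and 38.4 CPM in mESC (8.39 ± 0.43, adjusted p = 0.00077). Tubb2b, the filament protein Ina and the motor Kif5c were called at 4.04 ± 0.27, 3.81 ± 0.25 and 2.32 ± 0.17 (adjusted p = 0.00091, 0.00089 and 0.001). Map1b, a microtubule protein of growing axons, had all brain values below mESC, at 119, 90.8 and 90.5 CPM in brain and 303 and 359.7 CPM in mESC, and was not called at -1.73 ± 0.22. Dcx, Stmn2 and Elavl3, further marks of young neurons in the brain table alone, read 506, 458 and 386 CPM, 343, 401 and 443 CPM and 408, 429.6 and 542 CPM of the whole table, in that order.

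Among neurogenic transcription factors 2 of 6 tested were called, both higher in brain, or 3 higher in brain and 1 higher in mESC without control 1. Sox4, which drives neuronal differentiation, read 1456, 1169 and 1070.0 CPM in brain and 108 and 154 CPM in mESC (3.23 ± 0.27, adjusted p = 0.0012), and Dlx2 is given above. Of the exonic bases of Sox4, 54.6% overlap a gene of the opposite strand, whose reads may be included. Its relative Sox11 read 0, 4.9 and 2.4 CPM in brain and 23.1 and 39.8 CPM in mESC and was not called (adjusted p = 0.16). Without control 1 its difference was -3.09, at an adjusted p of 0.00095. The proneural factor Neurog2, in the brain table alone, read 86.6, 120.4 and 75 CPM of the whole table.

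RNA-binding proteins that set neuronal splicing had 2 of 10 members called higher in brain, or 4 without control 1 and 5 with the length trend removed. Celf4 read 178, 79.4 and 244 CPM in brain and 8.18 and 10.2 CPM in mESC (4.19 ± 0.62, adjusted p = 0.0057, and 0.27 with limma-voom). Khdrbs3 was called at 2.84 ± 0.54 (adjusted p = 0.012), and the call was lost without FA0 (0.062) or FA4 (0.07) and with limma-voom (0.1). Ptbp1, which blocks neuronal exons in other cells, read 119.6, 230.0 and 176 CPM in brain and 721 and 790.3 CPM in mESC (-2.11 ± 0.30, adjusted p = 0.0051), and fell under 4-fold without control 1 (-1.89) and with TMM (-1.88). Ptbp2, its neural relative, read 103, 23.3 and 134 CPM in brain and 25.4 and 34.9 CPM in mESC and was not called (1.53 ± 0.79, adjusted p = 0.18). The splicing factor Srsf3 had 1 count over the brain controls and 393 and 449 CPM in mESC (adjusted p = 0.00077).

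Axon guidance and adhesion genes had 10 of 22 members called higher in brain and 3 higher in mESC (45.5% and 13.6%). Synaptic and vesicle genes had 4 and 1 of 10 (40% and 10%), or 5 and 2 without control 1. Over all genes tested the shares were 11.0% and 15.6%. The ephrin Efna2 read 301, 381 and 364 CPM in brain and 6.95 and 11.5 CPM in mESC (5.24 ± 0.35, adjusted p = 0.00091), and the semaphorin Sema6a 119.5, 158 and 147 CPM in brain and 5.72 and 7.14 CPM in mESC (4.46 ± 0.35, adjusted p = 0.0011). Robo1, the Slit receptor, was called at 3.66 ± 0.49 and the receptor Epha7 at 3.80 ± 0.43 (adjusted p = 0.0043 and 0.0025, the latter 0.094 with limma-voom). Plxnb2, a semaphorin receptor also used in epithelia, went toward mESC, at 0, 0.108 and 0.15 CPM in brain and 124 and 116 CPM in mESC (adjusted p = 0.0015). Syt11, a vesicle protein, read 506, 552 and 709 CPM in brain and 22.3 and 26.6 CPM in mESC (4.59 ± 0.27, adjusted p = 0.00086). Dlg4, the synaptic member called higher in mESC, read 2.62, 1.94 and 1.58 CPM in brain and 41.7 and 35.4 CPM in mESC (-4.23 ± 0.66, adjusted p = 0.0067). The call of Dlg4 was lost without FA0 or FA4. Chrna3, an acetylcholine receptor subunit, had 0 mESC counts and 57.2, 17.5 and 10.7 CPM in brain, at least 39.6-fold higher (adjusted p = 0.016), and lost its call without control 2 (0.055), FA0 (0.062) or FA4 (0.056). Of ion channels 2 of 10 were called, the sodium channel subunit Scn3b and the calcium channel Cacna1h, both higher in brain, and without control 1 the counts were 2 higher in brain and 2 higher in mESC. Scn3b lost its call without FA0 (adjusted p = 0.064), without FA4 (adjusted p = 0.067) and with limma-voom (adjusted p = 0.051), and Cacna1h without FA4 (adjusted p = 0.057) and with limma-voom (adjusted p = 0.077).

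**Figure D5:**
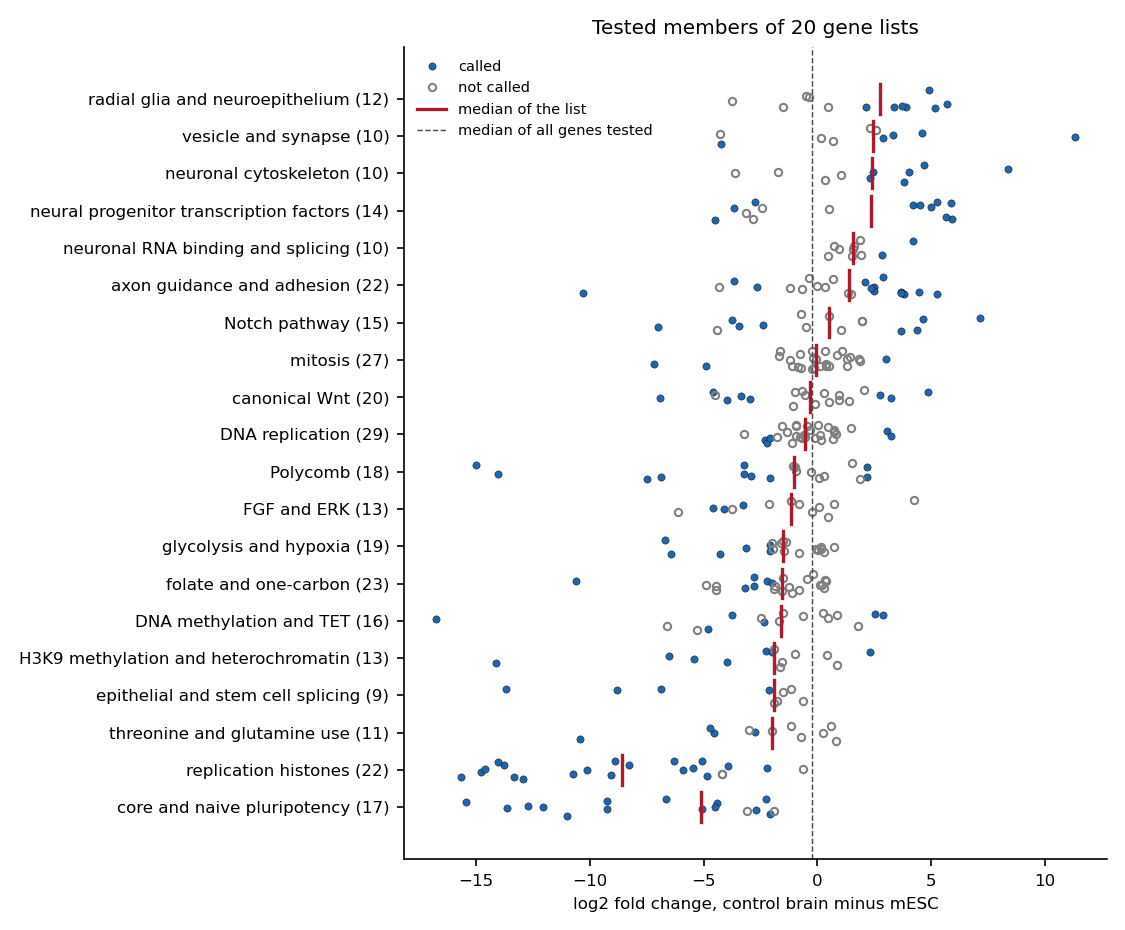
Log2 fold change, control brain minus mESC, of each tested member of 20 gene lists, with the number tested in brackets. Filled points were called, open points were not, red bars are list medians and the dashed line is the median over all genes tested, -0.26. Pluripotency genes and histones lie to the left, radial glia and neuronal genes mostly to the right, and cell cycle genes around the dashed line.

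In the Notch pathway, which keeps neural progenitors from differentiating, 4 of 15 genes were called higher in brain and 4 higher in mESC. Each was 26.7%, beside 11.0% toward brain and 15.6% toward mESC over all genes tested. The feedback inhibitor Nrarp read 629, 842 and 688 CPM in brain and 3.48 and 6.87 CPM in mESC (7.14 ± 0.43, adjusted p = 0.00086). Of its exonic bases 79.4% overlap a gene of the opposite strand, so the counts may not all be its own. The ligands Dll3 and Jag1 were at 316, 262 and 264 CPM for Dll3 and 223, 194 and 184 CPM for Jag1 against 12.9 and 9.61 CPM for Dll3 and 13.3 and 17.8 CPM for Jag1 (4.64 ± 0.28 and 3.69 ± 0.29, adjusted p = 0.00086 and 0.0011). Toward mESC, the transcriptional effector Rbpj read 141, 103 and 90 CPM in brain and 1600.5 and 1364 CPM in mESC (-3.74 ± 0.25, adjusted p = 0.00091), the receptor Notch2 23.4, 30.9 and 25.4 CPM in brain and 294 and 291 CPM in mESC (-3.46 ± 0.23, adjusted p = 0.00093), and the ligand-activating ligase Mib1 4, 1.29 and 0.676 CPM in brain and 249 and 263 CPM in mESC (-7.00 ± 0.84, adjusted p = 0.0031).

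Canonical Wnt genes had 3 of 20 members called higher in brain and 5 higher in mESC. These were 15% and 25%, beside 11.0% and 15.6% of all genes tested. The Frizzled receptors lay on both sides. Fzd10 read 217, 195 and 311 CPM in brain and 5.52 and 11 CPM in mESC (4.88 ± 0.48, adjusted p = 0.0018). Fzd7 read 24.4, 19.4 and 10.4 CPM in brain and 267 and 309 CPM in mESC (-3.99 ± 0.42, adjusted p = 0.0021), and Fzd5 2.12, 0.431 and 0.451 CPM in brain and 115 and 129.9 CPM in mESC (-6.91 ± 0.92, adjusted p = 0.0041). The co-receptors Lrp5 and Lrp6 were higher in mESC, at -2.97 ± 0.30 and -4.60 ± 0.45 (adjusted p = 0.0019 and 0.0018).

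In the FGF-ERK pathway 3 of 13 genes were called, all higher in mESC, or 5 without control 1. The 3 were 23.1%, beside 15.6% of all genes tested. Etv5, an ERK-responsive factor of ESC, read 38.2, 45.5 and 28 CPM in brain and 878 and 891 CPM in mESC (-4.57 ± 0.26, adjusted p = 0.00086). The feedback inhibitors Spred2 and Spry4 were called at -3.29 ± 0.50 and -4.13 ± 0.94 (adjusted p = 0.0061 and 0.02), and Spry4 lost its call without control 3 (0.078), FA0 (0.065) or FA4 (0.069). Among BMP and Nodal genes, the BMP target Id3 was higher in brain, at 616, 710.1 and 439 CPM in brain and 12.9 and 23.3 CPM in mESC (5.03 ± 0.43, adjusted p = 0.0013), and Id1 at 2.78 ± 0.47, or 0.92 with the length trend removed (adjusted p = 0.15). With limma-voom the adjusted p of Id1 was 0.057. The BMP receptor Bmpr2 had 0 brain counts and 87.9 and 88.1 CPM in mESC. Of hedgehog genes 1 of 10 was called, the transducer Smo, at 385, 241 and 219 CPM in brain and 50.9 and 57.7 CPM in mESC (2.38 ± 0.34, adjusted p = 0.0051). This 10% of hedgehog genes stood beside 11.0% of all genes tested. Without control 1 the hedgehog counts were 1 higher in brain and 2 higher in mESC.

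Of 15 tested cadherin and epithelial junction genes, 4 were called higher in mESC and 2 higher in brain, or 7 and 2 without control 1. The 4 and 2 were 26.7% and 13.3%, beside 15.6% and 11.0% of all genes tested. Cdh1 (E-cadherin) read 12.1, 45.3 and 79.3 CPM in brain and 1202 and 1288 CPM in mESC (-4.77 ± 0.78, adjusted p = 0.0075), and Cldn4 of tight junctions 6.19, 1.83 and 1.2 CPM in brain and 171 and 148 CPM in mESC (-5.69 ± 0.83, adjusted p = 0.0053). Snai1, a repressor of E-cadherin, was higher in brain at 4.27 ± 0.60 (adjusted p = 0.0048, and 0.15 with limma-voom). Epcam was not called, and without control 1 it was (-2.67, adjusted p = 0.00028).

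Of 29 DNA replication genes 2 were called higher in brain and 3 higher in mESC, and of 27 mitosis genes 1 and 2, beside 11.0% and 15.6% of all genes tested. Of 15 cyclins and cyclin-dependent kinase inhibitors 3 and 2 were called, or 3 and 6 without control 1. With the length trend removed the replication counts were 0 and 0. Mcm3 of the replicative helicase read 548, 603 and 638 CPM in brain and 749 and 737 CPM in mESC (-0.32 ± 0.15, adjusted p = 0.14). Cenpa, the centromeric histone, was called higher in brain at 3.00 ± 0.18 (adjusted p = 0.00086). Cdkn1c (p57), an imprinted inhibitor that acts when progenitors leave the cycle, read 1498, 1644 and 1218 CPM in brain and 9.81 and 22.8 CPM in mESC (6.49 ± 0.50, adjusted p = 0.0011). The cyclin Ccnd1 (cyclin D1) was also higher in brain, at 535, 562 and 504 CPM in brain and 64 and 80.5 CPM in mESC (2.89 ± 0.20, adjusted p = 0.001). Cdk4 was higher in brain at 2.23 ± 0.31, or 1.79 with the length trend removed.

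Glycolysis and hypoxia genes had 6 of 19 members called, folate and one-carbon genes 6 of 23 (9 without control 1), and threonine and glutamine genes 4 of 11, all toward mESC, with medians of -1.50, -1.57 and -1.98. With all libraries these were 31.6%, 26.1% and 36.4%, beside 15.6% of all genes tested. The neuronal-type glucose transporter Slc2a3 read 146, 155 and 147 CPM in brain and 2712 and 3033 CPM in mESC (-4.27 ± 0.15, adjusted p = 0.00075). Pgk1 and Eno1, enzymes of glycolysis, read 7.25, 16 and 11.8 CPM for Pgk1 and 18.9, 7.05 and 18.7 CPM for Eno1 in brain against 1118 and 1301 CPM for Pgk1 and 1072 and 1511 CPM for Eno1, but both have near-identical copies in the mouse genome, so their counts are uncertain. Tdh, the threonine dehydrogenase on which mouse ESC depend, read 0, 0.0538 and 0.3 CPM in brain and 172 and 163 CPM in mESC (-10.45 ± 1.09, adjusted p = 0.002). The amino acid transporter Slc7a5 and the asparagine synthetase Asns were called at -4.73 ± 0.24 and -4.56 ± 0.38 (adjusted p = 0.00077 and 0.0012).

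In folate metabolism, the purine enzyme Gart read 93.6, 87.8 and 63.5 CPM in brain and 791 and 676 CPM in mESC (-3.17 ± 0.24, adjusted p = 0.0011), and Psat1 of serine synthesis 149, 142 and 169.8 CPM in brain and 1154 and 989 CPM in mESC (-2.80 ± 0.17, adjusted p = 0.00086). The methionine synthase Mtr was called at -2.80 ± 0.44 (adjusted p = 0.0066) and mitochondrial Mthfd2 at -2.21 ± 0.18 (adjusted p = 0.0012), which TMM took under 4-fold (-1.96). The folate receptor Folr1 read 0, 5.81 and 3.45 CPM in brain against 52.5 and 84.6 CPM and was not called (adjusted p = 0.09). Without control 1 it was called at -3.88 (adjusted p = 7.4e-05).

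Genes of short transcripts need the most care. Replication-dependent histone genes had 19 of 22 members called higher in mESC and 0 higher in brain, with a median of -8.60, or -8.57 with genes at 0 set to their bound, and 0 counts in all brain controls for 6. Many of them, though not the linker histones Hist1h1a and Hist1h1b, have near-identical copies. Reads shared between copies may have been counted differently in the 2 tables, which was not tested, so these values are uncertain. Hist1h1a and Hist1h1b also had 0 counts in all brain controls. In mESC they read 565 and 581 CPM for Hist1h1a and 306 and 325 CPM for Hist1h1b. The cause of the histone differences was not tested. Cytosolic ribosomal protein genes, with a median exon length of 2015 bases, had 17 of 45 called higher in brain and 6 higher in mESC. With the length trend removed this became 7 and 10, so the direction of this family is not settled. Zinc finger genes with numbered Zfp symbols had 9 of 227 called higher in brain and 24 higher in mESC, 3.96% and 10.6% against 11.0% and 15.6% of all genes. Without control 1 these counts were 14 and 54, when 980 and 1852 of all genes were called. The lower share of Zfp genes toward mESC was therefore not kept without control 1.

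Imprinted genes, expressed from 1 parental allele, had 3 of 12 members called in each direction. That is 25% each, beside 11.0% toward brain and 15.6% toward mESC over all genes tested. Grb10, a growth inhibitor, read 2316, 2143 and 1571 CPM in brain and 62 and 73 CPM in mESC (4.90 ± 0.27, adjusted p = 0.00086), and the neuronal gene Ndn 256, 273 and 228 CPM in brain and 12.5 and 14 CPM in mESC (4.25 ± 0.25, adjusted p = 0.00086).

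Brain tissue also held other cells. Of mesenchyme and neural crest genes 5 of 6 tested were called higher in brain, led by Pdgfra at 241, 266 and 219 CPM against 6.13 and 12.9 CPM (4.68 ± 0.43, adjusted p = 0.0015). The 24 mesenchyme and crest markers found summed to 2055 to 2638 CPM of the whole brain table, and the 15 erythroid markers, led by embryonic globin Hbb-y, to 17069 to 27815 CPM. Endothelial markers summed to 481 to 563 CPM, macrophage markers to 146 to 283 CPM and muscle markers to 59.9 to 126 CPM, and 3 of the 13 muscle markers were at 0. Neuronal cytoskeleton genes, by comparison, summed to 24976 to 35909 CPM. The part of these cells in the differences above was not tested. Of endothelial genes none of 4 tested was called. Of germline genes, some of which ESC express, none of 3 was called, and without control 1 all 3 were called higher in mESC.

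The FA0 and FA4 libraries resembled each other more than any pair of brain controls did. The median absolute difference of log2(CPM + 1) over 8114 genes was 0.179 between them, 0.456 to 0.700 between brain controls, and 1.44 to 1.65 between brain and mESC. With 1 library per condition, no difference between FA0 and FA4 was tested.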

How the data were processed

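The deposited brain table holds whole-number counts per gene, per the file headers, and the deposited mESC table holds estimated counts and FPKM per gene, per its column names. The submitters' processing notes list cutadapt 1.9.3, HISAT2 2.0.4, HTSeq 0.9.1, edgeR and build mm10, without saying which made which table, and strand settings are not given. The FPKM values are the authors' and were used only for genes of the mESC table alone and for Prdm14. The mESC table was reduced to 1 row per gene, its estimated counts were rounded, and each library was scaled to its total over 8114 shared genes. edgeR 4.0.16 in R 4.3.3 (quasi-likelihood, filterByExpr, no TMM factors) compared 3 brain with 2 mESC libraries, with Benjamini-Hochberg adjustment over 8043 genes, and the script was tested on simulated data. Of 14496 and 9217 listed genes the rest were not compared. Exon lengths came from GENCODE and promoters from RefSeq.

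Named genes are the 15 largest called changes each way with a mean log2 CPM of at least 3, up to 4 members per list with the smallest p, and set identity genes, with 33 further list members chosen after their values were seen. A few genes that the rule names are not reported here. The gene lists and libraries were chosen with earlier results of these data known. A group at 0 counts is bounded by 3 counts per library, and intervals cover counting error only. Alternatives used DESeq2 1.42.0 and limma 3.58.1, other scalings, filters and fold thresholds, and each library left out. Removing the length trend and requiring 10 counts in each library were added after the data had been seen.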

Additional observations from a re-analysis of the deposited data

How the results depend on the processing

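The count of genes higher in brain, 886, became 1654 with quantile normalization, 442 with limma-voom, 1536 at a 2-fold threshold and 1623 with none. The count higher in mESC, 1254, became 755 over genes with at least 10 counts in each library. Leaving out 1 library gave 581 to 980 genes higher in brain and 580 to 1852 higher in mESC, with the lowest counts without FA0 and the highest without brain control 1. With FA0 or FA4 left out, the lone mESC library is assumed to vary like the brain libraries. Of 141 called genes named by rule, 105 kept the call in every alternative other than the 2 added later, 119 kept it with any 1 library removed, and in no alternative did a called gene change direction. Of the 22 further list members named and called, 17 kept the call in those alternatives. Counts over lists moved by more than 1.5 times in at least 1 alternative for 59 of 86. A few differences without a call changed sign. Grhl3 became 0.19 and Tead4 1.81 on the log2 scale with quantile normalization. Pecam1 became -0.041 with limma-voom and ran from -0.32 to 0.39 with 1 library left out. Otx2 became -0.044 with the length trend removed and ran from -0.38 to 0.43 with 1 library left out. The cause of these changes was not tested. The depth of the mESC libraries, 3641525 and 4891042 counts, limits low genes there. No paired analysis was possible because the brain controls and the mESC libraries come from different material and each mESC group holds 1 library, so fewer than 2 replicate numbers are shared.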
